A study of Rattus norvegicus with 8 samples.

Results

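The Schwann cell and myelin sheath genes Pmp22, Pllp, Mbp, Prx, S100b and Sox10 were followed across 8 diaphragm libraries. They were chosen by name, as the 6 rows of the deposited count table with these symbols, out of 17055 rows. Each library came from 1 Sprague-Dawley rat, sampled 16 weeks after surgery. In the MI group (4 animals) a myocardial infarction had been made by tying the left anterior descending coronary artery under isoflurane. The 4 Sham animals went through the same left thoracotomy with the pericardium removed, but no artery was tied. Sex, body age, and which piece of the diaphragm was taken were not given in the sources used here.

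Schwann cells wrap the axons of peripheral nerve. Those around large axons form the myelin sheath, stacked membrane held together by a few abundant proteins, and those around thin axons or at the neuromuscular junction make no myelin. Sox10 is the transcription factor that all cells of this lineage need, and together with Egr2 it switches on the myelin genes. In the diaphragm, Schwann cell RNA comes from the branches of the phrenic nerve and from the cells that cap nerve endings. It is a very small part of the RNA of the tissue. Which cells gave the reads of each member was not tested.

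Among the members, Pmp22 and Pllp encode membrane proteins of compact myelin, and Mbp a protein on the inner face of the myelin membrane. Prx (periaxin) links the myelinating Schwann cell to its surrounding basal lamina, and S100b is a calcium-binding protein used as a Schwann cell marker that adipocytes also make. The values below are read counts or CPM, counts scaled to a common library total after TMM scaling, which corrects the totals for differences in RNA composition. Library totals ran from 7941402 to 24967251 counts, with Sham replicate 8 the shallowest and Sham replicate 7 the deepest. A floor of 3 counts equalled 0.116 to 0.369 CPM, and this covers counting error only.

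The listed start sites of 3 members that followed different patterns across the animals (Pmp22, Prx and S100b, described below) are shown by the 250 bases before each start, from RefSeq on the rat GRCr8 build. These are chr10:48294682-48294931 on the plus strand for Pmp22, chr1:91914171-91914420 on the plus strand for Prx, and chr20:12381082-12381331 on the minus strand for S100b. Capitals mark CCAAT, a common promoter element, on either strand.
Pmp22: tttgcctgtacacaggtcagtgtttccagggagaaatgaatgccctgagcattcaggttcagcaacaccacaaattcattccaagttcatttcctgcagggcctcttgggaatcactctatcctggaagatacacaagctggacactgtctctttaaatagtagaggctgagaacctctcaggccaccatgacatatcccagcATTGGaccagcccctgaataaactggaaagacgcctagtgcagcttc
Prx: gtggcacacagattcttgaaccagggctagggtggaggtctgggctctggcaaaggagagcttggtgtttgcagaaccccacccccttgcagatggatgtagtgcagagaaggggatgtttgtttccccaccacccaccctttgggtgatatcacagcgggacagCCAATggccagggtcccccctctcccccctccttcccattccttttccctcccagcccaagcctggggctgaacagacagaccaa
S100b: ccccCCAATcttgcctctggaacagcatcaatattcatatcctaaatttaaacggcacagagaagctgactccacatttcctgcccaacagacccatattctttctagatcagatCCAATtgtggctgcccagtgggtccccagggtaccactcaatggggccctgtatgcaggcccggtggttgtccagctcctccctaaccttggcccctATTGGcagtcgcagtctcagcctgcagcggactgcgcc

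The Pmp22 window held 1 CCAAT, the Prx window 1 and the S100b window 3, and 34.0% of all 33469 promoter windows of the same length held at least 1. The letters ACAAAG or ACAATG, core sequences to which Sox factors bind, were found on neither strand of the 3 windows printed, and 16.3% and 11.1% of all windows held them. GCGNGGGCG, the letters of the Egr family site, was in none of the 3 and in 4.29% of all windows, and TATAAA was likewise in none of the 3 and in 12.9% of all windows. The windows reach only 250 bases before 1 listed start, and motifs farther away were not searched. For 5 of the 6 members a window was at hand. The Pllp window held none of the 5 motifs. Of 2 Mbp windows, that before the upstream start held none, and that before the downstream start held 1 ACAAAG and 2 ACAATG.

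The labelled cell type was checked against its defining markers. Egr2, the partner of Sox10 at myelin genes, had 4 to 15 counts per library. Mag, a glycoprotein at the inner edge of myelin, had 5 counts in all 8 libraries together, and Gfap, a filament of non-myelinating Schwann cells, had 4. Other markers of non-myelinating Schwann cells had more, namely Ncam1 (2009 in all), Scn7a (972), Cdh2 (130), Ngfr (86) and L1cam (78). Ncam1 is also listed below among muscle genes that respond to denervation. Of 6 oligodendrocyte markers, Mobp, Opalin and Ermn were at 0 counts in all libraries, Mag and Olig2 had 5 and 1 counts in all, and Mog had 55, with 4 to 11 in every library. The list summed to 0.339 to 0.735 CPM in MI and 0.424 to 0.984 CPM in Sham, most of it Mog. Of 5 melanocyte genes in the table, Tyr was at 0, Mlana, Tyrp1 and Pmel had 1, 3 and 40 counts in all, and Mitf, which muscle and other tissues also express, had 11687. The melanocyte list summed to 89.7 to 108.8 CPM in MI and 94.9 to 107.6 CPM in Sham. In whole tissue, fewer cells of a type and less RNA per cell cannot be told apart.

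The first 3 members, which encode proteins of the myelin membrane, had higher means in MI, by differences that did not pass the test. Whether their reads came from Schwann cells was not tested. Pmp22 had 106, 112, 87.0 and 113 CPM in MI replicates 1 to 4 and 83.3, 81.6, 75.8 and 106 CPM in Sham replicates 5 to 8. The groups overlapped through MI replicate 3 and Sham replicate 8. The means were 104.5 ± 12.0 and 86.7 ± 13.2 CPM in turn (SD, n = 4 per group), and MI over Sham came to 0.27 ± 0.12 (SE) on the log2 scale, with an adjusted p of 0.601 in the edgeR quasi-likelihood test.

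Mbp, the myelin basic protein gene, had 10.6, 18.2, 7.45 and 10.03 CPM in MI and 6.30, 9.14, 5.52 and 10.2 CPM in Sham. MI replicate 2 stood above all other libraries, and the remaining MI values lay within or just above the Sham range. The log2 fold change was 0.60 ± 0.29 (adjusted p = 0.624), and without MI replicate 2 it was 0.28. This row may combine the myelin transcripts with those of the longer golli form, which starts upstream in the same gene and is also made outside myelin.

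Pllp, which encodes plasmolipin, had 2.20, 2.75, 2.46 and 1.499 CPM in MI and 1.83, 1.48, 1.16 and 1.72 CPM in Sham. MI replicates 1 to 3 were above every Sham library, and MI replicate 4 was among the lowest values. The log2 fold change was 0.57 ± 0.27 (adjusted p = 0.610). It rested on 13 to 45 counts per library.

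Prx did not separate the groups at all. It had 1.74, 2.63, 2.03 and 1.61 CPM in MI and 1.39, 2.32, 2.39 and 1.97 CPM in Sham. Its highest library was MI replicate 2 and its lowest Sham replicate 5. The log2 fold change was -0.0095 ± 0.26 (adjusted p = 0.992), with 14 to 62 counts per library. The sign depended on the setting.

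S100b was spread most widely in MI. It had 9.02, 7.15, 15.1 and 25.7 CPM in MI, so that MI replicates 2 and 4 gave the lowest and the highest value of the series. The Sham libraries, at 14.1, 11.1, 10.4 and 7.50 CPM, fell between these. The log2 fold change was 0.37 ± 0.39 (adjusted p = 0.799). Without MI replicate 4 it was -0.07, and with limma-voom on all libraries it was 0.12.

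Sox10 was near the counting floor, with 3 to 8 counts in each library. It had 0.267, 0.367, 0.423 and 0.346 CPM in MI and 0.586, 0.257, 0.270 and 0.369 CPM in Sham. The groups summed to 18 and 22 counts, and after scaling by the summed library sizes of each group the ratio of MI to Sham was 0.999, with an exact 95% binomial interval of 0.505 to 1.95 for counting error alone. Sox10 did not pass the filter on low counts and so was not tested with the others. In a fit without the filter its log2 fold change was -0.05 ± 0.50 (edgeR adjusted p = 0.998).

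**Figure D1:**
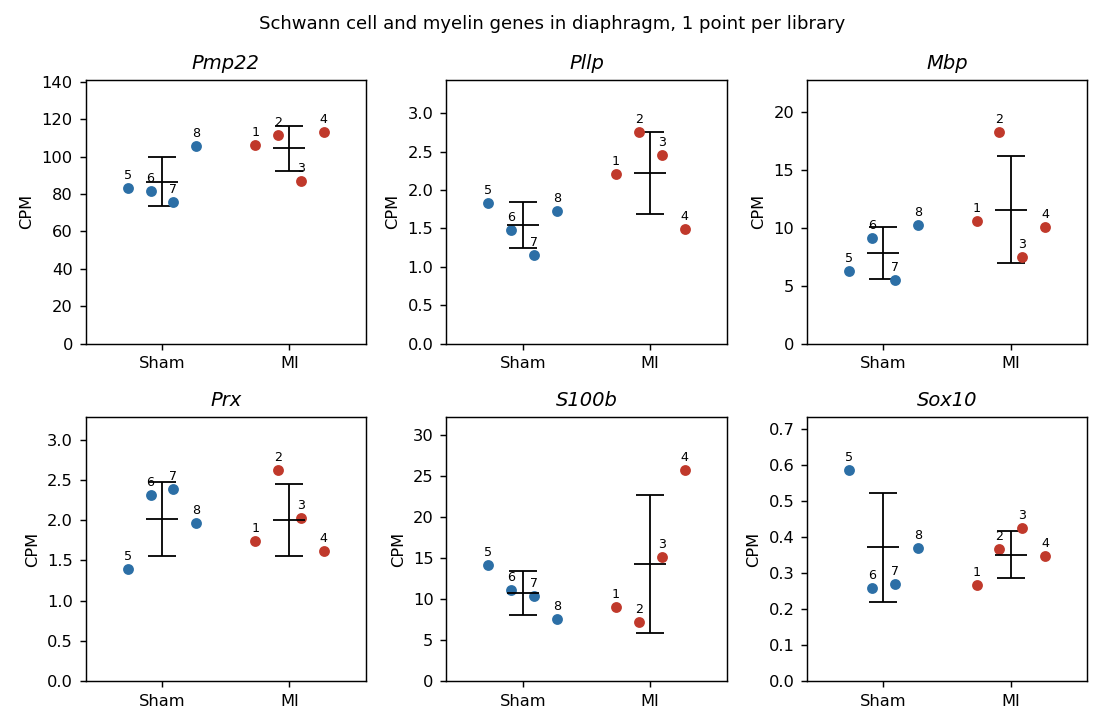
CPM of the 6 members in each library (y axis, from 0, a scale of its own in each panel), with Sham in blue and MI in red. Numbers are replicates and the black bars show mean ± SD (n = 4). The groups overlap for every member, and Mbp in MI replicate 2 (18.2 CPM) and S100b in MI replicate 4 (25.7 CPM) stand above the remaining libraries.

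The edgeR test, at an adjusted p under 0.05, called 0 of the 5 members that passed the filter in either direction, and 0% of all 10522 genes. At an unadjusted p under 0.05 it gave 1 member, Pmp22, and 8.14% of all genes (3.67% higher and 4.47% lower in MI). Of the 5 members 4 had a log2 fold change above 0, as did 48.7% of all genes. No member had groups that did not overlap, which held for 4.55% of all genes. DESeq2 called 0.112% of its genes, and none of the 6 members was among them. The median log2 fold change was 0.37 over the 5 members, or 0.24 without MI replicate 4, and -0.0070 over all genes.

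The animal numbers in the labels fall in a lower range (MI replicates 1 and 2, Sham replicate 5) and a higher one (MI replicates 3 and 4, Sham replicates 6 to 8), which the labels do not call a batch. MI minus Sham in mean log2 CPM was positive in both ranges for Pmp22 (0.39 and 0.19), Pllp (0.40 and 0.39) and Mbp (1.12 and 0.11). It was of opposite sign in the lower and higher range for Prx (0.57 and -0.27), S100b (-0.80 and 1.04) and Sox10 (-0.68 and 0.26). The lower range holds a single Sham animal, so these are values without a test.

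How far the members differed between animals was first set against counting error. If a gene were at the same level everywhere and only counting varied, the chi-square of its counts divided by its degrees of freedom would lie near 1. It was 37.9 for Pmp22, 31.1 for S100b and 28.3 for Mbp, 2.73 for Pllp and 1.27 for Prx. For Sox10 it was 0.506. The 8 Sox10 values therefore differed by no more than counting would give, and those of Prx by little more.

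No direction was shared by all pairs of members. Over the 8 libraries, 7 of the 15 pairs had a Pearson correlation of log2 CPM above 0 and 8 below 0, with a median of -0.02 and a range of -0.56 to 0.82. Of the 15 pairs 9 include Prx or Sox10, whose values left little or no spread beyond counting, so these pairs could show little. Of the other 6, the 3 among Pmp22, Pllp and Mbp were above 0 and the 3 with S100b below 0. None of the 15 passed an exact two-sided permutation test after Benjamini-Hochberg adjustment over the 15 pairs, in which the smallest adjusted p was 0.107. For comparison, the median correlation of Pmp22 with all other tested genes was -0.0086 and that of Mbp was -0.0098. A value above 0.8 was reached by 100 of 10521 genes with Pmp22 and by 45 with Mbp.

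Pmp22 and Mbp varied together most closely. Their Pearson r was 0.82 (exact permutation p = 0.00714, adjusted p = 0.107) and their Spearman rho 0.79 (exact permutation p = 0.0279, adjusted 0.419). Both were lowest in Sham replicate 7, and both were high in MI replicate 2. Without the 2 libraries farthest from the Pmp22 median, Sham replicate 7 and MI replicate 4, r was 0.81. With each library left out in turn r ran from 0.73 to 0.88, and over deviations from the group means it was 0.73.

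Pllp followed the pair less closely. Its r was 0.61 with Mbp (exact permutation p = 0.105, adjusted 0.625; Spearman rho 0.55) and 0.48 with Pmp22 (exact permutation p = 0.221, adjusted 0.664; rho 0.52). The relation with Mbp rested on MI replicate 2 and Sham replicate 7, without which r was -0.27. That of Pllp with Pmp22 was 0.52 without Sham replicate 7 and MI replicate 4, and 0.10 over deviations from the group means.

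S100b had correlations below 0 with all 4 of the myelin members. Its r was -0.38 with Mbp (exact permutation p = 0.351, adjusted 0.787; Spearman rho -0.57), -0.28 with Pllp, -0.07 with Pmp22 and -0.56 with Prx (exact permutation p = 0.149, adjusted 0.625; rho -0.52). MI replicate 2, the highest library for Mbp, Pllp and Prx, was the lowest for S100b. With each library left out in turn, r with Mbp ran from -0.74 without MI replicate 4 to -0.06 without MI replicate 2, that with Pllp from -0.45 without MI replicate 3 to -0.03 without MI replicate 2, and that with Pmp22 turned sign. None of these relations passed, and each group alone, with 4 animals, was too small for a correlation of its own. The ranges of animal numbers, with 3 and 5 libraries, were also too small.

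**Figure D2:**
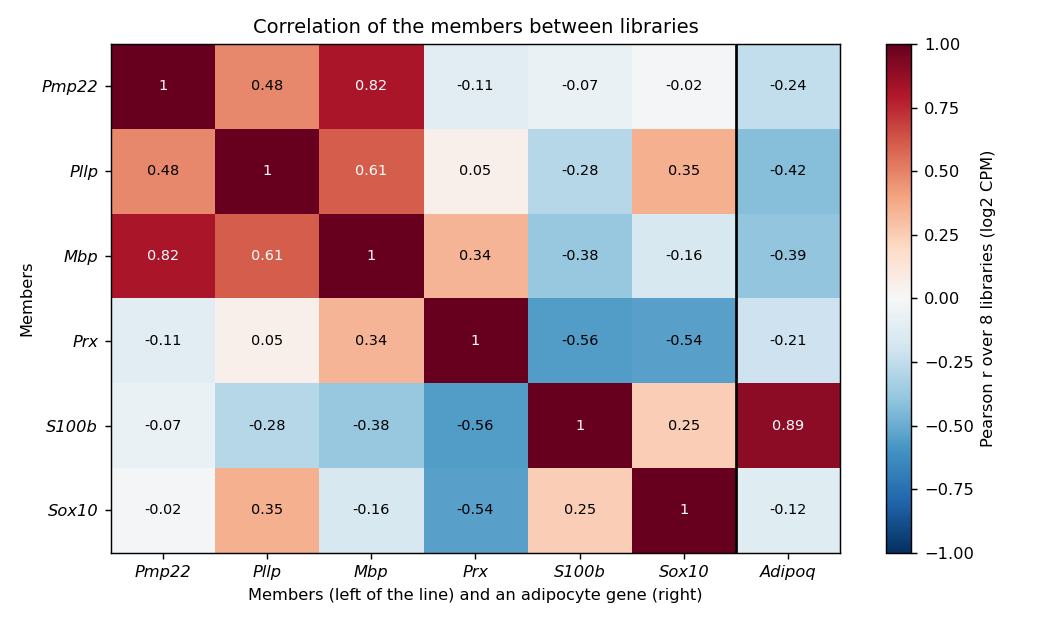
Pearson correlation over the 8 libraries between the 6 members (rows) and the members and Adipoq (columns), from -1 (blue) to 1 (red), on log2 CPM. The darkest red cells off the diagonal are Pmp22 with Mbp (0.82) and S100b with Adipoq (0.89). The darkest blue are Prx with S100b (-0.56) and Prx with Sox10 (-0.54). Prx and Sox10 have no value above 0.354 with any other gene shown.

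To place these patterns, each member was also set against Adipoq, an adipocyte hormone gene. Adipoq was chosen after the values were seen, as 1 of 3 marker genes that gave 18 relations, so its correlations are a description with no test. S100b with Adipoq had r = 0.89 and Spearman rho 0.93, the highest value of the 6 members with this gene. With each library left out in turn r stayed between 0.80 and 0.94, and over deviations from the group means it was 0.89. Without MI replicates 4 and 2, the 2 farthest from the S100b median, r was 0.72.

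Adipoq had 20.8, 14.2, 55.0 and 100.3 CPM in MI and 26.1, 52.0, 36.4 and 14.6 CPM in Sham. Like S100b it was highest in MI replicate 4, second highest in MI replicate 3 and lowest in MI replicate 2. Its log2 fold change between the groups was 0.53 ± 0.67 (edgeR adjusted p = 0.840), and without MI replicate 4 it was -0.13.

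The other adipocyte markers lay on the same side. All 9 tested adipocyte genes had a correlation with S100b above 0, from 0.39 to 0.92 with a median of 0.79, against a median of 0.0068 for S100b with all tested genes. Cidec, a lipid droplet protein, had the highest value (0.92) and Plin1, which coats the droplet, had 0.85. Without MI replicate 4 all 9 were still above 0, with a median of 0.59. Fibroblast markers also lay mostly above 0 with S100b, 7 of 8 with a median of 0.51, and up to 0.74 for the collagen gene Col1a1. The adipocyte genes' median log2 fold change between the groups was 0.26 (8 of 9 above 0), and it was -0.13 without MI replicate 4. For the other members the median over these 9 genes was -0.20 with Pmp22, -0.42 with Pllp, -0.39 with Mbp, -0.21 with Prx and -0.12 with Sox10. Without MI replicate 4 these were -0.77, -0.35, -0.62, 0.10 and -0.14, so that the sign for Prx turned. The summed level of the adipocyte list, most of it lipoprotein lipase (Lpl), which muscle also makes, was 2157 to 3481 CPM in MI and 2191 to 2973 CPM in Sham. The part that adipocyte RNA has in the S100b values was not tested.

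**Figure D3:**
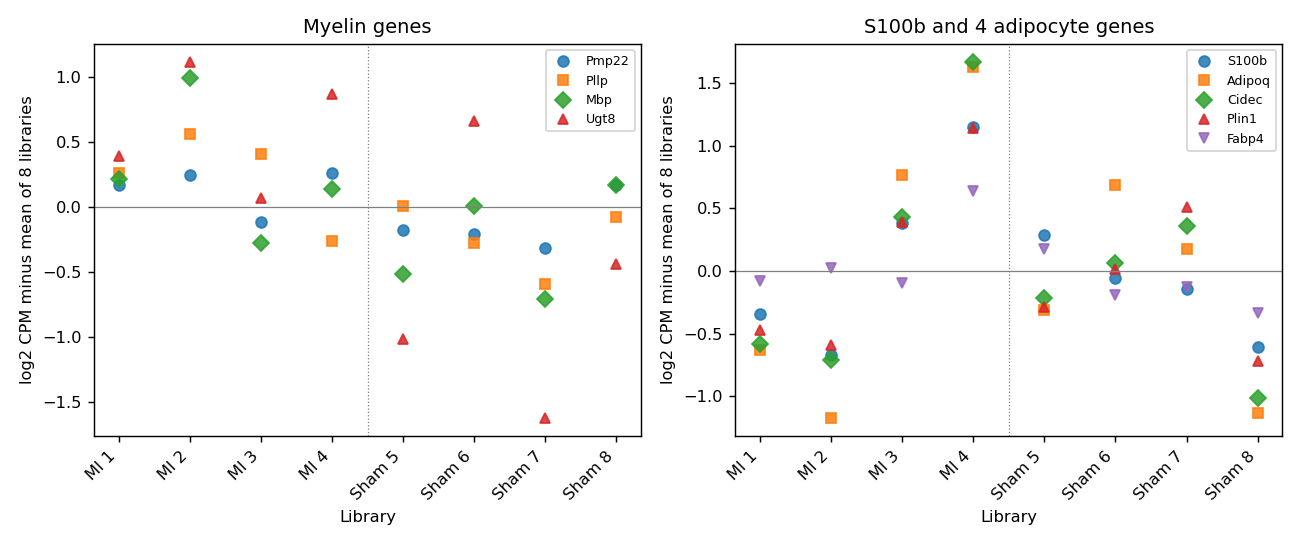
Log2 CPM of each gene minus its mean over the 8 libraries (y axis), by library (x axis), for 4 myelin genes (left) and for S100b with 4 adipocyte genes (right). Sham replicate 7 is the lowest library for all 4 myelin genes, at 0.193 CPM for Ugt8, and MI replicate 4 is the highest for S100b and the adipocyte genes shown.

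Ugt8, which makes the myelin lipid galactosylceramide, had the highest correlation with Mbp of the 12 other myelin genes tested. Its r was 0.82 with Mbp, 0.67 with Pmp22, 0.51 with Pllp, 0.17 with Prx, 0.08 with S100b and -0.22 with Sox10, given as a description over the 8 libraries. The 12 genes together had a median r of 0.25 with Mbp, from -0.25 to 0.82, and of 0.14 with Pmp22, from -0.49 to 0.78.

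Ugt8 had 1.20, 2.08, 0.931 and 1.73 CPM in MI and 0.366, 1.48, 0.193 and 0.615 CPM in Sham, on 5 to 34 counts per library. Like Mbp and Pllp it was lowest in Sham replicate 7 and highest in MI replicate 2. The span between the highest and the lowest library was 10.8-fold for Ugt8, 3.59-fold for S100b, 3.30-fold for Mbp, 2.38-fold for Pllp, 2.28-fold for Sox10, 1.89-fold for Prx and 1.49-fold for Pmp22.

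**Figure D4:**
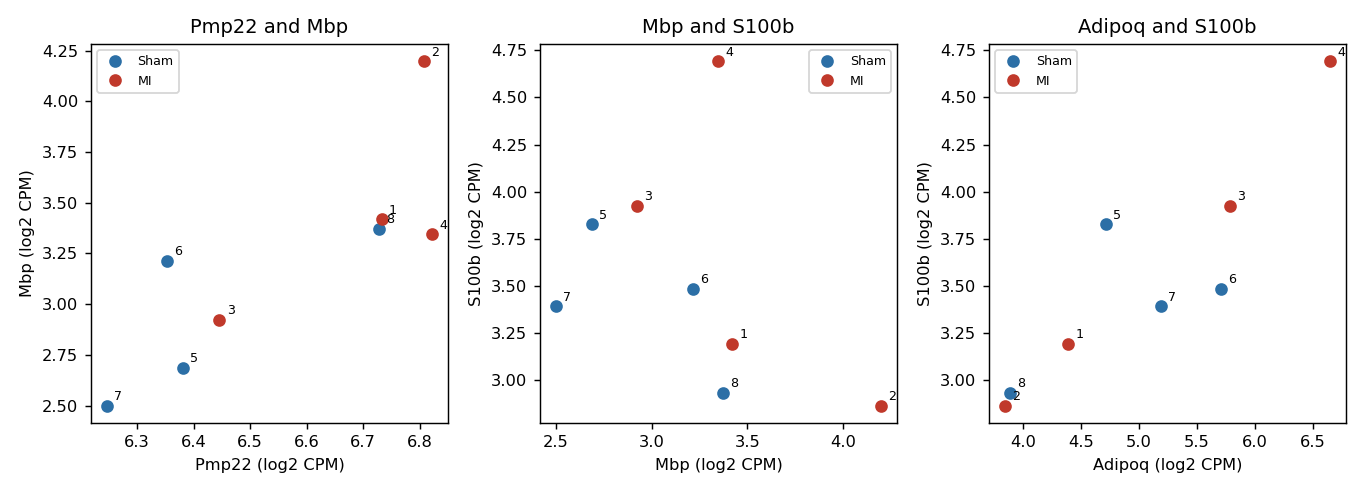
Log2 CPM of pairs of genes in the 8 libraries (Sham blue, MI red, numbers are replicates). Pmp22 and Mbp have r = 0.82, S100b and Mbp r = -0.38, and S100b and Adipoq r = 0.89, with MI replicates 2 and 4 at opposite ends.

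Prx, whose values differed by little more than counting, was set against the marker lists in the same way. All 8 tested smooth muscle and pericyte markers correlated with it above 0, from 0.11 to 0.76 with a median of 0.48, against 0.0196 for Prx with all genes. The highest was Myh11, smooth muscle myosin (0.76). The median for Prx was 0.34 with endothelial markers (6 of 8 above 0) and 0.34 with skeletal muscle markers (4 of 7 above 0). For Mbp 6 of the 8 smooth muscle and pericyte markers were above 0, with a median of 0.23. Single nerve genes reached values as high with Prx. Its median was 0.11 with 12 other myelin genes (8 above 0, from -0.42 to 0.73). With 11 other Schwann cell identity genes it was 0.03 (7 above 0, from -0.62 to 0.84). These are correlations over 8 libraries of a gene with 240 counts in all.

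The genes most like each member across the libraries were mostly not nerve genes. Among tested genes with a mean of at least 1 CPM, Pmp22 was matched most closely by Rapgef2 (r = 0.97), Hus1 (0.96) and Tmem68 (0.95), Pllp by Hdac9 (0.97), Slc25a11 (0.94) and Coq6 (0.94), and Mbp by Raph1 (0.97), Slc38a7 (0.95) and Arl5a (0.94). Prx was closest to Gfod2 (0.99), Timm44 (0.95) and Gnb4 (0.95). S100b was closest to Nnat, the imprinted neuronatin gene (0.94), to Il1b, a cytokine (0.94), and to Ccl11, the eosinophil chemokine eotaxin (0.94). Sox10, at its few counts, was closest to Clmn (0.91), Lingo4 (0.90) and Pdp1 (0.88). These are the top values among 10150 genes over 8 libraries, and are given as a description. The libraries differ in depth, and differences in depth or tissue composition can reach many genes at once.

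No gene followed all 6 members, but this could not have come out otherwise. The pairs of members had a median r of -0.02, from -0.56 to 0.82, which by itself keeps the mean correlation of any gene with all 6 low. The highest mean correlation over the 6 was 0.43, for Tmem179 and for Xpnpep2, followed by Idh2 and Bmx (0.43 each), Itgb4 (0.42) and Slc38a7 (0.42). Itgb4, the laminin-binding integrin subunit of Schwann and perineurial cells, was the 1 gene among these that also belongs to a nerve list used here. Its r was 0.85 with Mbp and 0.75 with Pmp22.

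Other genes linked to myelin were listed to show the pathway around the members. Of 23 such genes, 21 were in the table and 12 passed the filter. Among the 12 were Mtmr2 and Cd9, with 32111 and 15630 counts in all, while Mag and Gjb1, with 5 and 6, did not pass. Which cells the reads of this list came from was not tested. In edgeR 0 rose and 0 fell, 7 of the 12 had a log2 fold change above 0, and the median was 0.11 against -0.0070 over all genes, of which 48.7% were above 0. That median was 0.047 without MI replicate 4. At an unadjusted p under 0.05 there were 3, all higher in MI, where 3.67% of all genes were higher at that level.

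Aspa, which breaks down N-acetylaspartate, and Mpp6, a scaffold protein, had MI libraries that were all above Sham, at log2 fold changes of 0.34 ± 0.11 and 0.31 ± 0.11 (adjusted p = 0.601 for both in edgeR). Groups with all MI libraries above Sham made up 2.09% of all tested genes.

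Gldn, a protein of the node of Ranvier, had a log2 fold change of 0.99 ± 0.43 on 2 to 32 counts per library (edgeR adjusted p = 0.601), and it was 0.64 without MI replicate 2. Ugt8 had 1.21 ± 0.55 (adjusted p = 0.610). That value was 0.78 without Sham replicate 7 and 2.12 without Sham replicate 6. Another 9 genes, among them Cldn19, Drp2 and Pmp2, did not pass the filter.

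Genes listed for Schwann cell identity apart from myelin showed no common direction. Of 21 listed, 11 were tested, 0 rose and 0 fell, and 4 had a log2 fold change above 0 with a median of -0.05. Among the 11 were Art3, with 31983 counts in all, and Ncam1, which is also in the denervation list. Egr2, Cdh19, Dhh, Gfap and L1cam did not pass the filter, so the median leaves them out. Sostdc1, a secreted inhibitor of BMP and Wnt signals, was at 1.52 ± 0.891 CPM in MI against 0.463 ± 0.331 CPM in Sham (log2 fold change 1.72 ± 0.54, edgeR adjusted p = 0.601). It rested on 2 to 44 counts per library, the groups overlapped, and without MI replicate 2 the log2 fold change was 1.23. Nab2, a corepressor that binds Egr proteins, was lower in all 4 MI libraries (8.10 against 10.3 CPM, log2 fold change -0.35 ± 0.13, edgeR adjusted p = 0.601). Of all tested genes 2.46% had all MI libraries below Sham. Nab1, a relative of Nab2, was at 0.15 ± 0.13, or 0.038 without MI replicate 1. Erbb3, the neuregulin receptor of Schwann cells, was at -0.64 ± 0.46, or -0.32 without MI replicate 2.

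**Figure D5:**
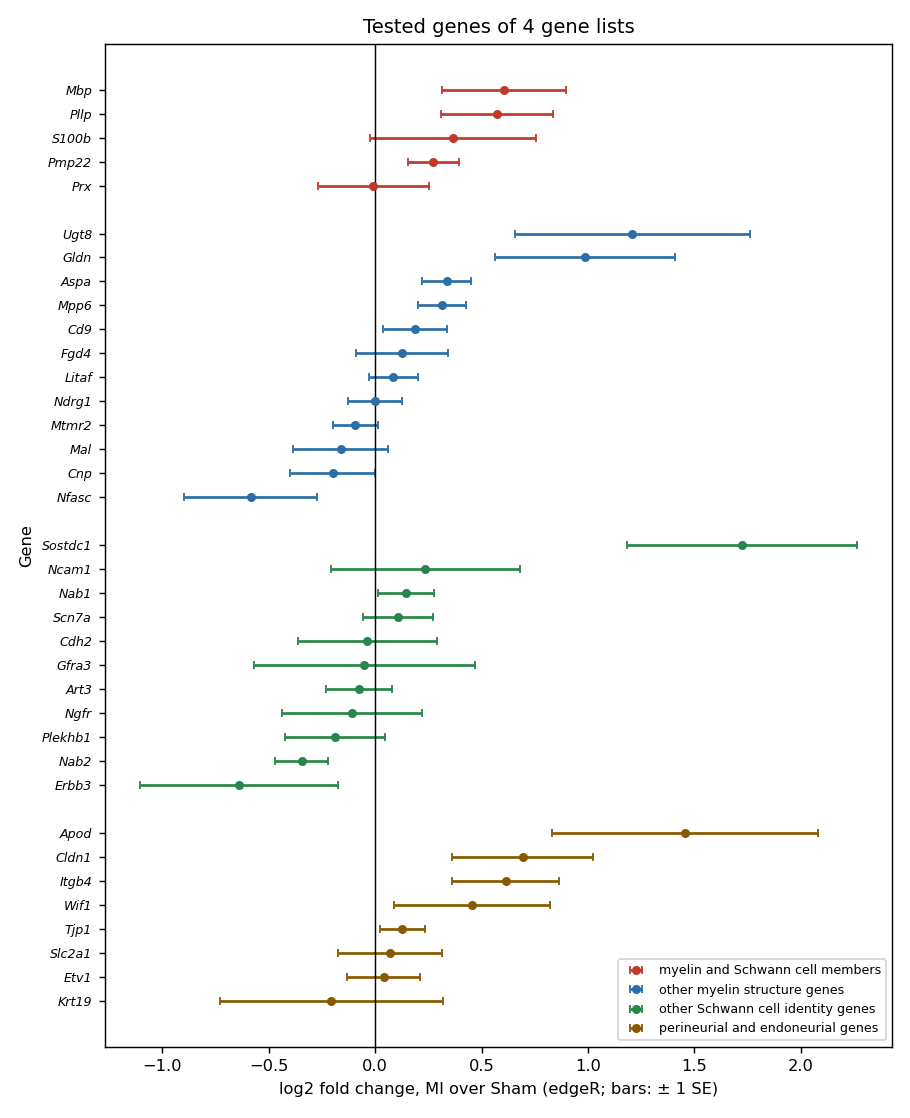
Log2 fold change of MI over Sham (x axis, points, with bars of ± 1 SE, edgeR) for the tested genes of 4 lists: the members (red), other myelin genes (blue), other Schwann cell genes (green) and genes of the nerve sheath (brown). To the right of 0 lie 7 of 12 other myelin genes, 7 of 8 nerve sheath genes and 4 of 11 other Schwann cell genes, and no gene shown passed the adjusted threshold.

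Signals between axon and Schwann cell were listed next, with 18 genes of which 12 were tested. In edgeR 0 passed in either direction, 6 had a log2 fold change above 0 and the median was 0.03. Bdnf, a neurotrophin, was at 0.65 ± 0.44 (adjusted p = 0.698), or 0.19 without MI replicate 2. Bace1 and Adam17, proteases that cleave neuregulin, were at 0.14 ± 0.11 (0.087 without Sham replicate 8) and -0.10 ± 0.09 (-0.05 without MI replicate 3). Nrg1 and Erbb2 did not pass the filter.

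Genes of the repair state that Schwann cells take on after nerve injury showed no common direction. Of 12, 6 were tested and 0 rose or fell, with 3 above 0, 3 below 0 and a median of 0.05. Gdnf and Shh were at 0 counts in every library. Jun, which drives that state, was at 51.8 CPM in MI against 65.9 CPM in Sham (-0.34 ± 0.24, edgeR adjusted p = 0.698), or -0.19 without MI replicate 1. Ngfr was at -0.11 ± 0.33, and Runx2 at 0.97 ± 0.42. Jun and Bdnf are expressed by many cell types.

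The cell bodies of the motor axons lie in the spinal cord, outside the muscle sampled. Of 18 axon and neuron genes 6 were tested, and 0 rose or fell. Chat and Slc18a3, which make and load acetylcholine, were at 0 counts in all libraries. The neurofilament gene Nefm was at 0.63 ± 0.61 (0.20 without Sham replicate 7), Prph, a filament of peripheral neurons, at 0.17 ± 0.33, Sncg at 0.18 ± 0.17 (0.03 without MI replicate 4) and Uchl1 at -0.47 ± 0.40. The sign of Prph and of Uchl1 turned without Sham replicate 5.

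Genes of nerve sheath cells were listed as well. Of 8 tested perineurial and endoneurial genes 0 passed, 7 had a log2 fold change above 0, against 48.7% of all genes, and the median was 0.29, or 0.15 without MI replicate 4. Apod, a lipid carrier of endoneurial fibroblasts, was at 4.01 to 5.93 CPM in MI and 0.154 to 3.54 CPM in Sham with no overlap (1.46 ± 0.62, edgeR adjusted p = 0.605). All MI libraries lay above Sham for 2.09% of all tested genes. The lowest Apod library was again Sham replicate 7, without which the Apod log2 fold change was 0.97. Itgb4 was at 0.61 ± 0.25 (0.37 without MI replicate 2), Cldn1, a tight junction protein of the perineurium, at 0.69 ± 0.33 (0.45 without Sham replicate 7) and Wif1 at 0.45 ± 0.37 (0.22 without MI replicate 4).

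Muscle genes that rise when a fibre loses its nerve did not move together. Of 10 tested, 0 passed, 4 were above 0 and the median was -0.04. Chrng, the fetal acetylcholine receptor subunit, was at 1.65 ± 0.589 against 0.929 ± 0.284 CPM (log2 fold change 0.91 ± 0.34, edgeR adjusted p = 0.601), and Chrna1, the receptor's alpha subunit, at 0.36 ± 0.16. Runx1 lay lower in all MI libraries (-0.69 ± 0.30, edgeR adjusted p = 0.603), on 5 to 29 counts per library. Groups with all MI libraries below Sham made up 2.46% of all tested genes. Hdac4 was at -0.22 ± 0.17, or -0.08 without MI replicate 1.

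Markers of other cells in the tissue are given for the same groups, with 0 genes called in any of these lists. Fibroblast markers summed to 1845 to 3320 CPM in MI and 1711 to 2393 CPM in Sham, with the highest value in MI replicate 4, and their median over 8 genes was 0.08 on the log2 scale (-0.19 without MI replicate 4). At an unadjusted p under 0.05 there were 3 of the 8, all higher in MI, where 3.67% of all genes were higher and 4.47% lower. These were Lum (0.76 ± 0.26), Fap (0.47 ± 0.16) and Dcn (0.34 ± 0.15), each with an edgeR adjusted p of 0.601. By the same count there was 1 each of 9 adipocyte, 8 endothelial and 8 smooth muscle and pericyte markers, all higher. So were 2 of 8 nerve sheath genes and 1 of 6 repair genes. Of 11 Schwann cell identity genes 1 was higher and 1 lower, and of 10 denervation genes 2 and 1. Endothelial markers had a median of 0.05 and smooth muscle and pericyte markers one of -0.06, over 8 genes each. Skeletal muscle markers had a median of -0.13 over 7 genes, and all 7 correlated below 0 with Pmp22 (median r -0.45). Mesothelial markers, from the lining of the diaphragm, had one of -0.25 over 4 genes, or 0.04 without MI replicate 2. Of the 8 fibroblast markers 6 correlated above 0 with Pmp22, with a median r of 0.26, from -0.23 to 0.76. The highest of these were the same 3 genes that were higher in MI, Fap (0.76), Lum (0.73) and Dcn (0.63). The part of these other cells in the values of the members was not tested.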

How the data were processed

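Bulk RNA-seq of diaphragm was available for 4 MI and 4 Sham rats, 1 library each, grouped by the labels. Libraries were made from total RNA with SMARTer ultra-low-input and KAPA Hyper kits, per the labels' protocols. The authors deposited raw whole read counts per gene symbol. The submitters' processing notes name build rn5 and, in no stated order, STAR 2.5.0a, TopHat, TopHat2, Cufflinks and bcl2fastq. How reads were counted, with which annotation and strand setting, is not given in the sources used here, and reads of overlapping genes cannot be told apart.

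All 17055 rows were fitted together in edgeR 4.0.16 (R 4.3.3) with TMM scaling, filterByExpr and the robust two-sided quasi-likelihood test, with p-values adjusted by Benjamini-Hochberg over 10522 genes that were kept and a threshold of 0.05. The edgeR procedure was run on simulated counts with known fold changes, the outcome of which is not reported here. The correlations were not tried on simulated data. Correlations used log2 CPM with a prior count of 2 and exact permutation over pairings, with scipy 1.17.1. The edgeR p-values set the difference between the groups against the spread between animals. The permutation p-values come from re-pairing libraries pooled over both groups, so a difference between the groups can add to a correlation.

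Named are the members, the up to 4 genes of each pathway list with the smallest p, defining markers, and the genes most correlated with the members. Cidec, Plin1, Myh11, Col1a1, Lum, Fap and Dcn, and the use of Adipoq as a reference, were chosen after their values were seen. Some genes of the myelin list are not reported here and are left out of its counts. The members and gene lists were chosen with earlier results of these data known. Alternatives were RLE size factors, library totals alone, no filter, limma-voom (limma 3.58.1), DESeq2 1.42.0, a minimum of 1 CPM in 4 libraries, no robust estimation, a term for the animal number range, a prior count of 0.5, deviations from group means, and each library left out. Promoter sequences and names are from RefSeq, GRCr8, not the build of the counts.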

Additional observations from a re-analysis of the deposited data

Results flagged for a closer look

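In 2 cases a value stood apart from the other 3 libraries of its group, by a gap that takes up more of the group's range than Dixon's 95% critical value allows. Ngfr in MI replicate 2 was at 0.428 CPM, against 0.807 to 0.868 CPM in the other MI libraries, on 7 to 19 counts per library. The chi-square of the Ngfr counts over its degrees of freedom was 0.421 over all libraries. The Ngfr values therefore differed by no more than counting would give. Nab1 in Sham replicate 5 was at 14.4 CPM, against 16.5 to 16.8 CPM in the other Sham libraries. With 66 groups of 4 values checked, chance flags about 1 in 20.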

How the results depend on the processing

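Calls over all genes numbered 0 in each direction in every edgeR and limma-voom setting on all 8 libraries, and 9 higher and 6 lower with DESeq2, none of them a member. With a library left out they ran from 0 to 1 higher and 0 to 0 lower.

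Pmp22, Pllp and Mbp kept a positive log2 fold change in all settings tried. Prx turned to 0.041 when the number range entered the fit and ran from -0.18 to 0.089 with a library left out. S100b ran from -0.068 to 0.59 and Sox10 from -0.21 to 0.28 in the same way. Signs also turned for Ngfr (-0.23 to 0.10), Uchl1 (-0.63 to 0.038), Prph (-0.017 to 0.47) and Adipoq (-0.13 to 0.85). The median of the repair list ran from -0.082 to 0.32 and that of the fibroblast markers from -0.19 to 0.23. Medians also turned sign for Schwann cell identity (-0.10 to 0.026), axon signalling (-0.011 to 0.046), denervation (-0.10 to 0.073), adipocyte (-0.13 to 0.51), endothelial (-0.084 to 0.13), smooth muscle (-0.16 to 0.058) and mesothelial genes (-0.60 to 0.044). The causes were not tested.

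Correlations that changed sign with a library left out were Pmp22 with Prx (-0.45 to 0.12), with S100b (-0.74 to 0.15) and with Sox10 (-0.29 to 0.39), Pllp with Prx (-0.39 to 0.39), Mbp with Prx (-0.14 to 0.69) and with Sox10 (-0.46 to 0.26), and Prx with Adipoq (-0.38 to 0.072). Without the 2 libraries farthest from the median, Pmp22 with Prx was at 0.33, Pllp with Mbp at -0.27 and Pllp with Prx at -0.044. Pmp22 with Sox10 was at 0.095 by Spearman rho, at 0.023 on library totals alone and at 0.0092 over deviations from group means. Of the 15 member pairs 0 passed in any setting.

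No paired analysis was possible because the labels name no pairs of animals. Depth limits Sox10 most, at 3 to 8 counts per library, then Pllp and Prx.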
